A study of Mus musculus and Homo sapiens with 9 samples.

Results

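The homing and trafficking receptors of T cells were followed in 2 RNA-seq count tables after loss of IRF2BP2, a nuclear protein that acts as a transcriptional cofactor. Members were the rows whose gene symbol was CCR7, S1PR1, CXCR4, CXCR3, CCR4, CCR9, ITGA4, ITGAL or SELPLG, in mouse case for the mouse table. All 9 genes were found as 1 row each in both tables, among 64252 human and 43432 mouse rows, and all 9 passed the filter on low counts in both. The human libraries came from J.gamma1, a derivative of the Jurkat T cell acute lymphoblastic leukemia (T-ALL) line that lacks phospholipase C gamma 1, carrying a control hairpin (shNC, n = 2) or a hairpin against IRF2BP2 (shIRF2BP2, n = 2). Per the study's methods the hairpins were delivered by lentivirus and the cells selected with puromycin, so that all 4 libraries share the vector and the selection, and the labels do not say which of the designed hairpins was sequenced. The mouse libraries came from CD3+ T cells isolated from spleen, of Irf2bp2 KO mice (n = 2 libraries) and of mice labelled Wild type (n = 3 libraries). The study's methods give the knockout as Vav-iCre+/-;Irf2bp2fl/fl and the controls as Vav-iCre-/-;Irf2bp2fl/fl, so the floxed alleles were in both groups and the recombinase was in the knockout alone. Vav-iCre acts across the hematopoietic lineage and is not confined to T cells. The labels give no age, and the age that the study states stands with its flow cytometry of these mice, without a statement that the sequenced animals were of the same age.

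A circulating T cell leaves the blood in steps. Selectins and their ligands let it roll on the vessel wall, a chemokine signals through a Gi-coupled receptor, integrins are switched to a binding state, and the cell arrests and crosses. Exit from lymphoid organs back into lymph follows a gradient of sphingosine 1-phosphate (S1P), read by S1PR1, while CCR7 and its chemokines hold naive and central memory cells in lymph nodes. In T-ALL the same receptors have been linked to the marrow (CXCR4) and to the central nervous system (CCR7).

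Total counts ran from 26648204 to 31120236 in the J.gamma1 libraries and from 16668577 to 37177523 in the mouse libraries. Levels are given as CPM (a gene's counts relative to the total of its library) scaled with TMM factors, fold changes on the log2 scale, and a call required an adjusted p under 0.05 in edgeR's quasi-likelihood test together with a log2 fold change at or beyond 0.5 in either direction. IRF2BP2 itself had a mean of 202 CPM in shNC and 86.4 CPM in shIRF2BP2, a log2 fold change of -1.22 with an adjusted p of 0.00229 by edgeR. In mouse it had 4145, 4594 and 1915 counts in the controls and 0 counts in both knockout libraries. Nothing in the labels says that replicates came from separate cultures or animals, so the human and mouse p-values measure the spread between libraries, which may be technical.

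In J.gamma1, S1PR1 and ITGAL were called higher after IRF2BP2 knockdown and CCR4 was called lower, while the other 6 members did not pass the test. Over all 15819 genes tested, 5.46% were called higher and 5.01% lower, against 2 higher and 1 lower of the 9 members. The median log2 fold change of the members was 0.61 and that of all genes 0.0067. The groups did not overlap for 8 members, 6 of them higher and 2 lower in both shIRF2BP2 libraries. Among all genes tested, 29.6% were higher and 28.7% lower without overlap.

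**Figure D1:**
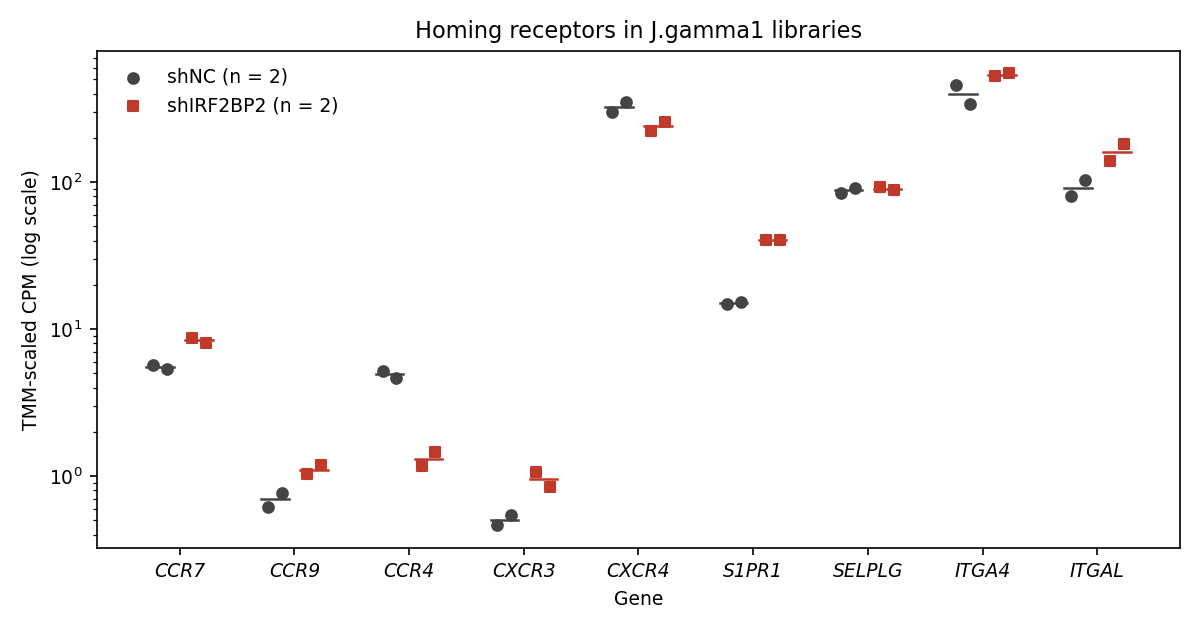
Levels of the 9 homing receptors in the J.gamma1 libraries, in TMM-scaled CPM on a log axis, with circles for the 2 shNC and squares for the 2 shIRF2BP2 libraries and a bar at each group mean. S1PR1 sits at 14.8 and 15.2 against 40.2 and 40.3, CCR4 lies lower in both knockdown libraries, and the SELPLG points of the groups overlap.

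S1PR1 encodes the S1P receptor that lets T cells leave lymphoid organs. It lies on chromosome 1 (chr1:101236865-101243713, plus strand, hg38). Its level was 14.8 and 15.2 CPM in the shNC libraries and 40.2 and 40.3 CPM in the shIRF2BP2 libraries. The groups were far apart and the replicates within each group almost coincided. The group means were 15 ± 0.348 CPM in shNC and 40.3 ± 0.107 CPM in shIRF2BP2 (SD over 2 libraries). S1PR1 thus rose 2.68-fold, with a log2 fold change of 1.42, a standard error of 0.13, a 95% interval of 1.11 to 1.73 and an adjusted p of 0.00157 in edgeR. Leaving out each library in turn gave log2 fold changes of 1.40 to 1.45, with adjusted p of 3.96e-05 to 0.00111 in the same edgeR test.

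ITGAL encodes the alpha L chain of LFA-1 (CD11a), the integrin that binds ICAM proteins during arrest. It lies on chromosome 16 (chr16:30472658-30523567, plus strand, hg38). Its level was 80.4 and 103 CPM in shNC and 139 and 183 CPM in shIRF2BP2. Both knockdown libraries lay above both controls, with a wider spread within each group than for S1PR1. The group means were 91.7 ± 16 CPM in shNC and 161 ± 31.0 CPM in shIRF2BP2 (SD over 2 libraries), and the log2 fold change was 0.81 (95% interval 0.40 to 1.22, edgeR adjusted p = 0.0265). The call was lost without shIRF2BP2 replicate 2, where the log2 fold change was 0.60 with an edgeR adjusted p of 0.104, and also when every gene with at least 1 count was tested (0.78, edgeR adjusted p = 0.0947).

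CCR4 encodes the receptor for CCL17 and CCL22, used by skin-homing, Th2 and regulatory T cells. It lies on chromosome 3 (chr3:32951644-32956349, plus strand, hg38). Its level was 5.21 and 4.64 CPM in shNC and 1.17 and 1.46 CPM in shIRF2BP2. Both knockdown libraries were below both controls. The mean was 4.93 ± 0.405 CPM in shNC and 1.31 ± 0.206 CPM in shIRF2BP2 (SD over 2 libraries), which was 3.74-fold lower, with a log2 fold change of -1.90 (95% interval -2.62 to -1.18, edgeR adjusted p = 0.00991). It stayed called without each library in turn, at log2 fold changes of -2.07 to -1.78 and edgeR adjusted p of 0.00454 to 0.0273.

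The 200 bases before the most upstream annotated start of S1PR1 and CCR4 are shown because these genes moved in opposite directions. They run 5′ to 3′ on the gene's strand from hg38 (chr1:101236665-101236864 and chr3:32951444-32951643). Capitals mark matches on either strand to CACCC, the core letters bound by KLF factors, since KLF2 is known to drive S1PR1 transcription in T cells.
S1PR1: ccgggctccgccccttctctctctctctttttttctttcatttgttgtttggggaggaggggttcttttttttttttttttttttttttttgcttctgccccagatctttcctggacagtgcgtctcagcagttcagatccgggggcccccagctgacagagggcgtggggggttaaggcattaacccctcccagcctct
CCR4: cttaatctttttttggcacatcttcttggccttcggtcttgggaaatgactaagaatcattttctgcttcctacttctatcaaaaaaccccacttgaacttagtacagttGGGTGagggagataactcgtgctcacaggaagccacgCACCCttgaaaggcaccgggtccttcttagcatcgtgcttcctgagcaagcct
In this window CCR4 held 2 matches to CACCC and S1PR1 held 0. The same letters were present in 49.9% of the 20044 windows of protein-coding genes and in 6 of the 9 members. The start chosen matters here, because the 200 bases before the Ensembl canonical transcript of S1PR1 held 2 matches. Of the other letters searched on both strands, TGTGGT (RUNX) was found in 8.20% of all windows and in 1 member, SELPLG, and GTAAACA (FOXO) in 1.83% of all windows and in no member. No search letters overlapped another match in the windows shown.

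The other 4 chemokine receptors gave values in J.gamma1 that did not pass the test. CCR7, the lymph node homing receptor for CCL19 and CCL21, measured 5.68 and 5.32 CPM in shNC and 8.76 and 8.04 CPM in shIRF2BP2. The groups did not overlap, and the log2 fold change was 0.61 (95% interval 0.11 to 1.12, edgeR adjusted p = 0.116). CXCR4, the CXCL12 receptor that holds cells in the bone marrow, measured 301 and 351 CPM in shNC and 223 and 256 CPM in shIRF2BP2. Its log2 fold change was -0.44 (95% interval -0.76 to -0.12, edgeR adjusted p = 0.0805). DESeq2 gave -0.45 with an adjusted p of 0.0183, short of the fold limit. Without shNC replicate 1 the log2 fold change of CXCR4 was -0.56 in edgeR.

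CCR9, the CCL25 receptor of gut homing and of thymocytes, had 16 and 24 counts in shNC and 30 and 35 in shIRF2BP2. CXCR3, the receptor of effector T cells for CXCL9, CXCL10 and CXCL11, had 12 and 17 counts in shNC and 31 and 25 in shIRF2BP2. Both were higher in each knockdown library, at these low counts with wide intervals. The log2 fold change was 0.67 for CCR9 (95% interval -0.41 to 1.74) and 0.91 for CXCR3 (-0.24 to 2.06), with edgeR adjusted p of 0.399 and 0.281. CCR9 is overlapped on the opposite strand by LZTFL1, at 103 CPM in shNC and 92.3 CPM in shIRF2BP2, and since the use of strand in the counting is not stated, reads from LZTFL1 and CCR9 cannot be told apart where their exons meet.

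ITGA4 and SELPLG, the remaining adhesion molecules, did not pass either. ITGA4, the alpha 4 chain of VLA-4 and of the gut-homing integrin alpha 4 beta 7, measured 459 and 340 CPM in shNC and 527 and 549 CPM in shIRF2BP2. Its log2 fold change was 0.43 (95% interval 0.051 to 0.81, edgeR adjusted p = 0.136), and without shNC replicate 1 it was 0.66. DESeq2 gave 0.43 with an adjusted p of 0.0427, short of the fold limit. SELPLG, which encodes PSGL-1, the main selectin ligand of leukocytes, measured 84.2 and 91.7 CPM in shNC and 92.2 and 88.6 CPM in shIRF2BP2. Its groups overlapped and its log2 fold change was 0.039 with a 95% interval of -0.23 to 0.31.

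Per kilobase of exon, the shNC level was highest for CXCR4 at 112 CPM per kb, followed by ITGA4 at 37.5 and SELPLG at 31.3, whose library ranges overlapped. ITGAL stood at 9.30 CPM per kb, S1PR1 at 2.87, CCR7 at 2.19 and CCR4 at 1.63. CXCR3 at 0.272 and CCR9 at 0.159 CPM per kb were the lowest. Apart from ITGA4 and SELPLG, no neighbours in this order overlapped between libraries. In shIRF2BP2 the order was the same but for CCR4, which at 0.434 CPM per kb lay beside CXCR3 at 0.514, with overlapping ranges. By the distance between log2 CPM profiles over the 4 libraries, the 3 genes most like S1PR1 among those of at least 10 CPM were NEK7 (distance 0.048), GLIPR1 (0.072) and ATOSB (0.098).

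**Figure D2:**
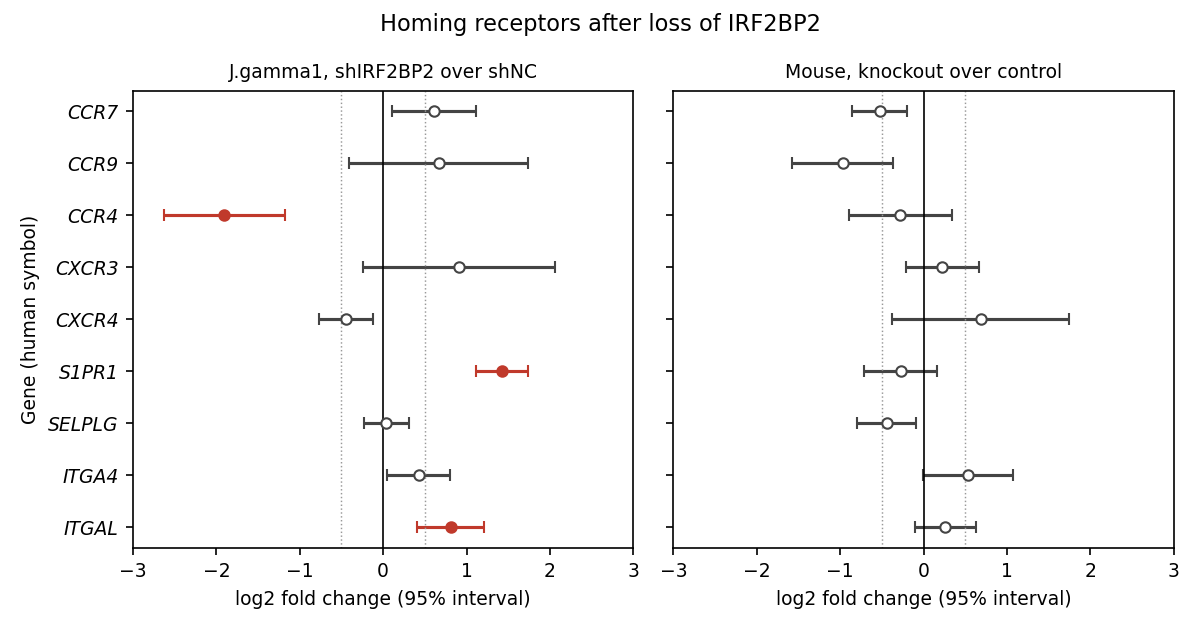
Log2 fold changes of the 9 members with 95% intervals in J.gamma1 (shIRF2BP2 over shNC, 2 libraries each) and in mouse T cells (knockout over control, 2 and 3 libraries), with filled red points for called genes and dotted lines at 0.5 in both directions. S1PR1, ITGAL and CCR4 are filled in J.gamma1, and no point is filled in mouse.

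The genes that act with the receptors in J.gamma1 were then read from 8 lists. For each call named here that was lost without some library, the highest adjusted p over these omissions is given with the library. Among partner integrin chains and adhesion receptors, 15 of 18 were tested, 4 were called higher and 1 lower, with a median log2 fold change of -0.13. ITGB1, the beta chain that pairs with ITGA4 in VLA-4, measured 238 and 226 CPM in shNC and 470 and 462 CPM in shIRF2BP2 (log2 fold change 1.01, edgeR adjusted p = 0.00308). ITGA5, the fibronectin receptor chain that also pairs with ITGB1, rose by 1.27 (edgeR adjusted p = 0.00467). Both stayed called without each library in turn.

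ITGB7, the beta 7 chain that pairs with ITGA4 for gut homing, measured 1.85 and 2.06 CPM in shNC and 5.53 and 4.10 CPM in shIRF2BP2, a log2 fold change of 1.30 (edgeR adjusted p = 0.0353, and 0.202 without shIRF2BP2 replicate 1). ITGAV rose by 0.82 (edgeR adjusted p = 0.0160, and 0.0579 without shIRF2BP2 replicate 1). ITGB2, the beta chain that pairs with ITGAL in LFA-1, measured 95.4 and 110 CPM in shNC and 127 and 143 CPM in shIRF2BP2, and at a log2 fold change of 0.40 (edgeR adjusted p = 0.0892) it did not pass. CD44 had at most 2 counts in any J.gamma1 library and was not tested.

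Of the other chemoattractant receptors, 15 of 26 were tested, 0 were called higher and 1 lower by edgeR, as by DESeq2, with a median of 0.043 (2 higher and 1 lower at an unadjusted p under 0.05). The gene called lower was CCR8, a CCL1 receptor known from Th2 and regulatory T cells, as CCR4 is, at 2.47 and 2.13 CPM in shNC and 0.172 and 0.271 CPM in shIRF2BP2 (log2 fold change -3.35, 95% interval -4.48 to -2.22, edgeR adjusted p = 0.00625). It stayed called without each library. In S1P metabolism, 6 of 8 genes were tested and SGPL1, the S1P lyase, was the 1 called higher (0.59, edgeR adjusted p = 0.0485, and 0.273 without shIRF2BP2 replicate 1), with a list median of 0.053. CD69, which pulls S1PR1 from the cell surface, measured 8.61 and 11.3 CPM in shNC and 12.7 and 22.9 CPM in shIRF2BP2, with a log2 fold change of 0.84 and an edgeR adjusted p of 0.107 (0.0364 in DESeq2).

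Downstream of the receptors, the G protein and migration list had 27 of 28 genes tested, 1 called higher, 3 lower and a median of 0.038. CDC42, a small GTPase of cell polarity, rose from 161 to 321 CPM (log2 fold change 1.00, edgeR adjusted p = 0.00297) and stayed called without each library. RHOH, a hematopoietic small GTPase, fell by 0.75 on the log2 scale (edgeR adjusted p = 0.0143, and 0.0920 without shIRF2BP2 replicate 1). RGS2, a GTPase-activating protein for G proteins, fell by 1.21 (edgeR adjusted p = 0.0301, and 0.126 without the same library). RAC2, a small GTPase of blood cells, lay at the fold limit, at -0.50 (edgeR adjusted p = 0.0452, and 0.214 without shIRF2BP2 replicate 2). Of the 14 integrin activation genes, all tested with a median of 0.029, FERMT3 (kindlin-3, 0.63) and VCL (vinculin, 0.56) were called higher and APBB1IP (RIAM, -0.56) lower. Without shIRF2BP2 replicate 1 none of these 3 was called, at edgeR adjusted p of 0.177, 0.130 and 0.201.

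Of the selectin ligand glycosylation genes, 10 of 11 were tested with a median of 0.039. GCNT1, the core 2 enzyme that builds the selectin-binding glycans of PSGL-1, was the 1 called, lower by a log2 fold change of -1.11 (edgeR adjusted p = 0.0440, and 0.153 without shIRF2BP2 replicate 1). Of the ligands of the members, 5 of 17 annotated genes were tested, with 1 called lower and a median of -0.14.

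Transcription factors named with homing genes gave the list with the most calls in J.gamma1. The lists were chosen with earlier results of these data known, so this order was not a test. All 13 were tested, 8 were called higher and 0 lower, and their median was 0.66. Over all genes tested, 5.46% were called higher and 5.01% lower. KLF2, an activator of S1PR1 in T cells, measured 17.5 and 23.2 CPM in shNC and 48.9 and 41.9 CPM in shIRF2BP2 (log2 fold change 1.16, edgeR adjusted p = 0.00689). FOXO1, known to act on KLF2 and CCR7, measured 12.2 and 10.9 CPM in shNC and 30.9 and 24.5 CPM in shIRF2BP2 (1.26, edgeR adjusted p = 0.00577). EOMES, a T-box factor of effector and memory cells, measured 11.8 and 11.3 CPM in shNC and 112 and 119 CPM in shIRF2BP2 (3.32, edgeR adjusted p = 0.000101). KLF3 rose by 0.90 (edgeR adjusted p = 0.0146, and 0.0765 without shIRF2BP2 replicate 1). KLF2, FOXO1 and EOMES stayed called without each library in turn. At an unadjusted p under 0.05, 11 of the 13 were higher and 0 lower, where 27.6% of all genes tested passed in either direction. DESeq2 called 8 of the 13 higher and 0 lower. T cell markers summed to 1939 to 2134 CPM in shNC and 1980 to 2095 CPM in shIRF2BP2.

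The 19 calls followed in these lists did not rest equally on the libraries. Without shIRF2BP2 replicate 1, 12 of them were lost (edgeR adjusted p of 0.0579 to 0.273). Without shNC replicate 2 RGS2, RAC2, SGPL1 and APBB1IP were lost, and without shIRF2BP2 replicate 2 RAC2, VCL and APBB1IP. When every gene with at least 1 count was tested, 10 were lost (ITGB7, ITGAV, RGS2, RAC2, FERMT3, VCL, APBB1IP, GCNT1, SGPL1 and KLF3, edgeR adjusted p of 0.0561 to 0.143).

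**Figure D3:**
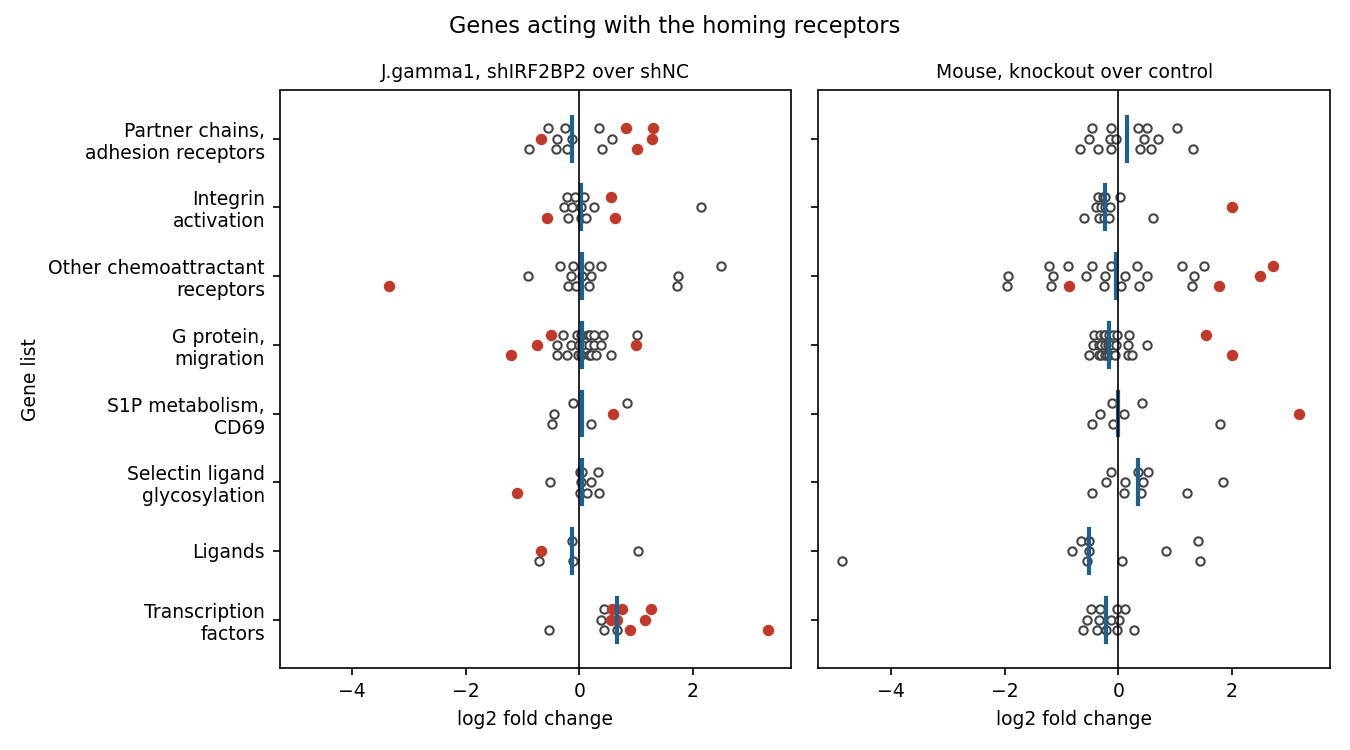
Log2 fold changes of the tested genes in 8 lists, in J.gamma1 and in mouse T cells, with filled red points for called genes, open points for the rest and a blue bar at each list's median. In J.gamma1 the transcription factor list has its median at 0.66, while the other 7 medians lie between -0.14 and 0.053. The lists were chosen with earlier results of these data known.

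In mouse splenic T cells none of the 9 members was called, where 2.68% of 15350 genes tested were called higher and 0.15% lower. At an unadjusted p under 0.05, Ccr7, Ccr9 and Selplg were the members that passed in edgeR, where 16.2% of all genes tested passed. DESeq2 called Ccr7 and Ccr9 lower, among 213 genes called lower and 945 called higher. The members' median log2 fold change was -0.28 and that of all genes -0.018. Ccr7, Ccr9 and Selplg were lower and Itga4 higher in both knockout libraries than in every control, where 17.8% of all genes tested were lower and 18.2% higher without overlap. In such bulk samples fewer cells of a type and less RNA per cell cannot be told apart.

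**Figure D4:**
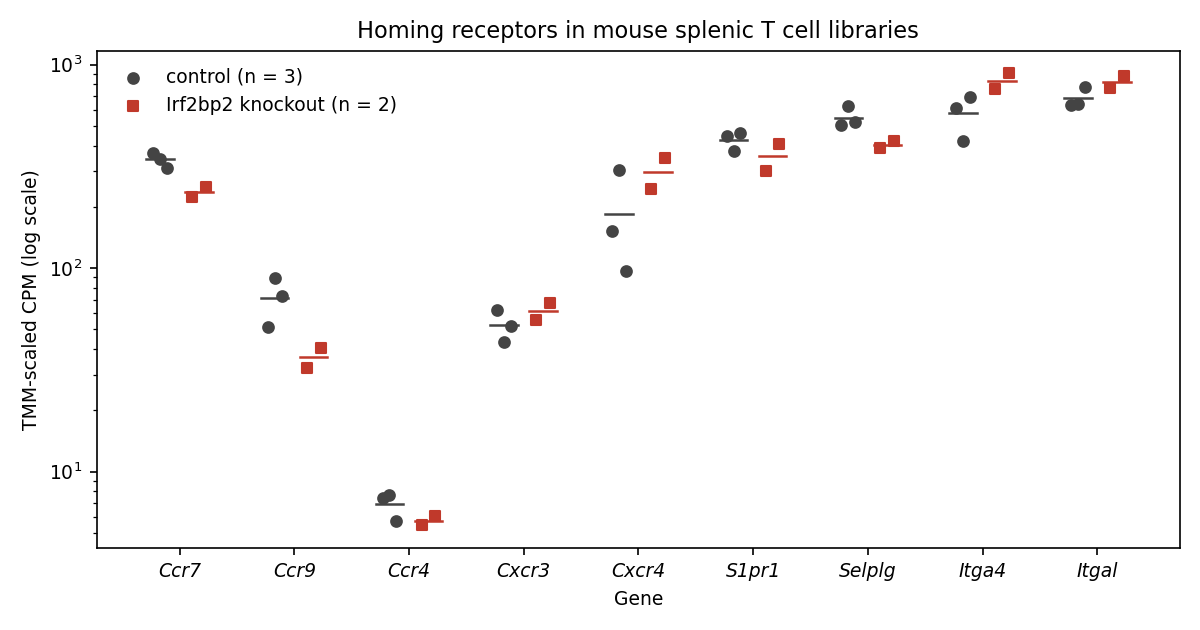
Levels of the 9 homing receptors in the mouse libraries, in TMM-scaled CPM on a log axis, with circles for the 3 control and squares for the 2 Irf2bp2 knockout libraries and a bar at each group mean. Ccr7, Ccr9 and Selplg lie lower and Itga4 higher in both knockout libraries, and the Cxcr4 controls spread from 97.0 to 304.

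Ccr7 lies on chromosome 11 (chr11:99144196-99155077, minus strand, mm10). Its level was 370, 346 and 312 CPM in the controls and 224 and 252 CPM in the knockouts. The groups did not overlap. The mean was 343 ± 29.0 CPM (SD, n = 3) against 238 ± 19.7 CPM (SD, n = 2), a log2 fold change of -0.53 with a 95% interval of -0.86 to -0.19 and an edgeR adjusted p of 0.123, and DESeq2 gave -0.52 with an adjusted p of 0.0177. Across library omissions the log2 fold change stayed between -0.64 and -0.46.

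Ccr9 lies on chromosome 9 (chr9:123678439-123784330, plus strand, mm10). Its level was 51.2, 89.8 and 73.4 CPM in the controls and 32.2 and 40.7 CPM in the knockouts. All knockout values were below the lowest control. The log2 fold change was -0.97 with a 95% interval of -1.58 to -0.36 and an edgeR adjusted p of 0.118, and DESeq2 gave -0.96 with an adjusted p of 0.0105. The annotated gene overlaps 4 genes on the opposite strand, whose reads cannot be told apart from those of Ccr9 where exons meet. Of these Lztfl1 measured 23.1 CPM in the controls and 22.5 CPM in the knockouts (log2 fold change -0.036), and the pseudogene Gm10052 26.2 and 25.6 CPM (-0.034). Slc6a20a, at 0 to 253 counts, was higher in the knockouts (0.256 against 5.95 CPM, log2 fold change 4.37, edgeR adjusted p = 0.0388), and AC165425.1 had at most 6 counts. On the same strand Gm17200 had at most 9 counts and Gm17020 had 0 in every library. By profile over the 5 libraries the 3 genes most like Ccr9 were Mrps6 (distance 0.349), Rab3ip (0.361) and Srpk2 (0.409).

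Selplg measured 507, 623 and 520 CPM in the controls and 390 and 420 CPM in the knockouts. The groups did not overlap, and the log2 fold change of -0.44 had a 95% interval of -0.79 to -0.088 with an edgeR adjusted p of 0.215. Itga4 measured 609, 422 and 697 CPM in the controls and 755 and 906 CPM in the knockouts, with a log2 fold change of 0.53 (95% interval -0.012 to 1.07, edgeR adjusted p = 0.320). Cerkl overlaps it on the opposite strand, at 28 to 147 counts in the mouse libraries. Itgal measured 636, 644 and 774 CPM in the controls and 764 and 877 CPM in the knockouts, overlapping between groups, with a log2 fold change of 0.26 (95% interval -0.10 to 0.62).

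S1pr1, the member with the lowest p in J.gamma1, measured 447, 375 and 463 CPM in the mouse controls and 299 and 409 CPM in the knockouts. The groups overlapped, and the log2 fold change was -0.28 with a 95% interval of -0.71 to 0.16 (edgeR adjusted p = 0.538). Ccr4 measured 7.42, 7.66 and 5.76 CPM in the controls and 5.46 and 6.03 CPM in the knockouts, with a log2 fold change of -0.28 (95% interval -0.90 to 0.34). The J.gamma1 and mouse values come from separate tables and a different kind of loss, and their difference was not tested.

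Cxcr4 measured 152, 304 and 97.0 CPM in the controls and 244 and 349 CPM in the knockouts. Control replicate 2 lay above knockout replicate 1, and the interval of the log2 fold change ran from -0.38 to 1.75 around 0.68. Cxcr3 measured 62.0, 43.5 and 52.1 CPM in the controls and 55.3 and 67.3 CPM in the knockouts, with a log2 fold change of 0.22 (95% interval -0.21 to 0.66).

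Per kilobase of exon the control level was highest for Ccr7 at 173 CPM per kb, followed by S1pr1 at 141 and Selplg at 129, of which S1pr1 and Selplg overlapped between libraries. Itgal at 104 and Cxcr4 at 102 CPM per kb overlapped as well, as did Itga4 at 41.2 and Cxcr3 at 30.3. The Cxcr4 controls ran from 53.6 to 168 CPM per kb and so also overlapped the ranges of Selplg, S1pr1 and Ccr7, which leaves the place of Cxcr4 among them unsettled. Ccr9 at 6.97 and Ccr4 at 2.25 CPM per kb were the lowest, and the value of Ccr9 is divided by an annotated exon length of 10260 bases, longer than for any other mouse member but Itga4. In the knockouts Cxcr4 came first at 164 CPM per kb, and Itgal, Ccr7, S1pr1 and Selplg followed at 125, 120, 116 and 94.8, each overlapping the next.

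The composition of the mouse libraries differed between groups. The 14 T cell markers summed to 6103 to 6985 CPM in the controls and 4701 to 4960 CPM in the knockouts, with 13 of 14 lower in log2 fold change, a median of -0.43 and 0 called by edgeR (8 lower at an unadjusted p under 0.05, and 2 called lower by DESeq2). The 10 erythroid markers summed to 588 to 2251 CPM in the controls and 4425 to 6235 CPM in the knockouts, with 5 called higher. Plasma cell markers summed to 414 to 1156 CPM against 1142 to 1507, B cell markers to 38.1 to 288 against 40.7 to 135, myeloid markers to 44.9 to 429 against 98.9 to 158, natural killer cell markers to 256 to 342 against 257 to 384 and platelet markers to 7.45 to 15.5 against 10.8 to 14.8. No marker of these lists was at 0 in all mouse libraries, and their part in the members' values was not tested. When libraries were scaled to the T cell markers in place of TMM, the median of all genes moved to 0.39, no member was called, and S1pr1 (0.12) and Ccr4 (0.13) turned positive. On that scale Ccr9 was at -0.55, Ccr7 at -0.12 and Selplg at -0.028, with edgeR adjusted p of 0.155, 0.603 and 0.894. Relative to the median of all genes they were at -0.94, -0.51 and -0.42. These nearly repeat the TMM values of -0.97, -0.53 and -0.44, since the scaling shifts all genes together, and they are no separate test.

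**Figure D5:**
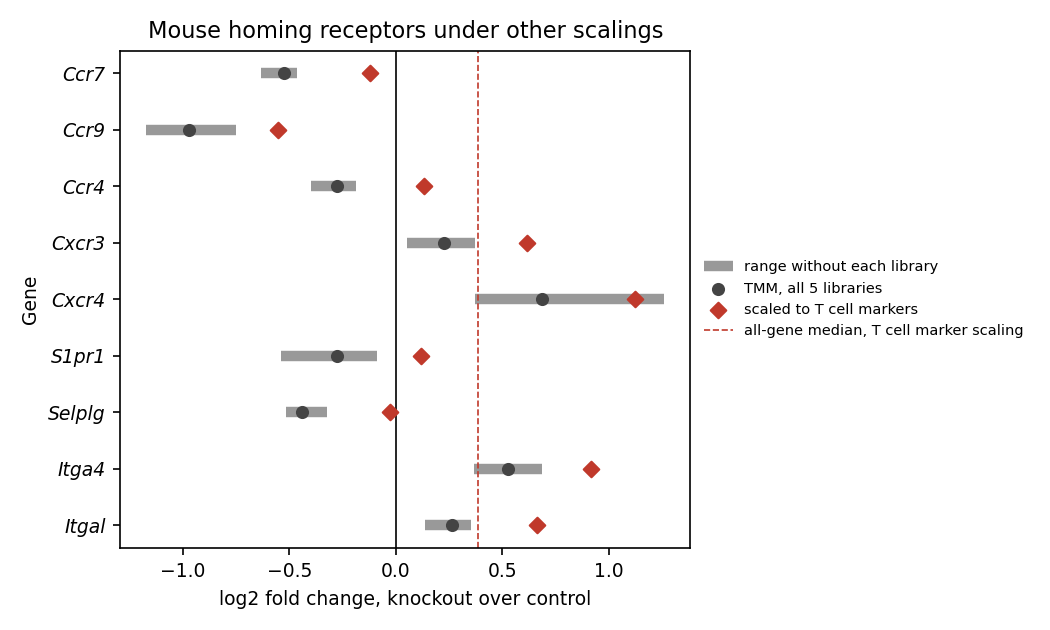
Log2 fold changes of the 9 members in mouse T cells with TMM scaling (circles), the range over fits that leave out each library (grey bars) and scaling to the T cell markers (diamonds), with a dashed line at the all-gene median of 0.39 under the latter. S1pr1 and Ccr4 cross 0 under T cell marker scaling, and Ccr9 lies farthest below 0 under both scalings.

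Genes that act with the receptors gave few calls in mouse. Partner chains and adhesion receptors had 0 of 16 tested genes called by edgeR and a median of 0.15 (4 higher and 2 lower at an unadjusted p under 0.05, and 2 higher and 1 lower in DESeq2). Itgb1 gave a log2 fold change of 0.69 (edgeR adjusted p = 0.184, and 0.0468 in DESeq2), Itgb2 -0.13, Itgb7 -0.13 and Cd44 0.45 (edgeR adjusted p = 0.224), where Itgb2 and Itgb7 turned positive under T cell marker scaling, at 0.28 and 0.26. Under that scaling Itgb1 (1.08) and Cd44 (0.85) were called, with edgeR adjusted p of 0.0494 and 0.0338. The median of all genes was itself at 0.39 there, and relative to it Itgb1 was at 0.69 and Cd44 at 0.46, near their TMM values. Klf2, the same factor as above, measured 377, 328 and 453 CPM in the controls and 195 and 400 CPM in the knockouts, so that the groups overlapped. Its log2 fold change was -0.37 with TMM, 0.0041 with T cell marker scaling and 0.032 without knockout replicate 1.

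Of the other chemoattractant receptors, 24 of 26 were tested, 3 were called higher and 1 lower, with a median of -0.034. Ccrl2, an atypical chemerin-binding receptor, rose by 2.50 (edgeR adjusted p = 0.0172, and 0.174 without knockout replicate 2). Ackr1, an atypical receptor found on erythroid cells and venules, rose by 2.72 (edgeR adjusted p = 0.0405), and by 2.63 without knockout replicate 2. It measured 0.432, 0.277 and 0.188 CPM in the controls and 1.96 and 2.17 CPM in the knockouts. These were 16, 10 and 3 counts against 75 and 77, so the control values are low. Cxcr6, a receptor of tissue-resident and effector T cells, fell by 0.87 on the log2 scale (edgeR adjusted p = 0.0362, and 0.328 without knockout replicate 2). It was no longer called under T cell marker scaling, at -0.46 with an edgeR adjusted p of 0.145.

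Rgs1 and Rgs16, which shorten the signal of Gi-coupled chemokine receptors, were the 2 called of 28 G protein and migration genes tested, with a list median of -0.17. Rgs1 measured 25.8, 28.3 and 34.6 CPM in the controls and 72.9 and 164 CPM in the knockouts (log2 fold change 2.0, edgeR adjusted p = 0.0298, and 0.137 without control replicate 1). Rgs16 rose by 1.55 (edgeR adjusted p = 0.0481, and 0.416 without knockout replicate 2). Sphk1, which makes S1P, measured 2.29, 4.37 and 1.5 CPM in the controls and 25.1 and 25.2 CPM in the knockouts, the 1 call among 8 genes of S1P metabolism (log2 fold change 3.18, edgeR adjusted p = 0.0156, and 0.114 without knockout replicate 2). The list median was 0.0029, and Cd69 measured 78.4, 124 and 63.7 CPM in the controls and 75.6 and 162 CPM in the knockouts, overlapping between groups.

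Vcl was the 1 call among 14 integrin activation genes (log2 fold change 2.0, edgeR adjusted p = 0.0127, and 0.141 without knockout replicate 2), and their median was -0.24. It was called higher in both tables. Selectin ligand glycosylation genes (11 tested, median 0.36), ligands (10 tested, median -0.52) and transcription factors (13 tested, median -0.21) had 0 calls each in mouse by edgeR. At an unadjusted p under 0.05 they had 3, 2 and 0 genes higher and 0, 3 and 3 lower, and DESeq2 called 3, 0 and 0 higher and 0, 2 and 1 lower. Of the 8 calls followed in these mouse lists, 0 held without each library in turn, against 7 of 19 in J.gamma1. All 8 were lost without control replicate 1 (edgeR adjusted p of 0.0564 to 0.161) and without knockout replicate 2 (0.114 to 0.416), and 7 without knockout replicate 1, where Rgs1 held. The erythroid markers that moved with the groups stand beside these calls too, and their part was not tested.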

How the data were processed

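RNA-seq counts of 4 J.gamma1 and 5 mouse T cell libraries were used. Per the labels the authors aligned reads with HISAT2 2.2.0 to hg38 or mm10 and ran StringTie; the deposited counts are whole numbers per Ensembl gene, and their conversion and strandedness are not given in the sources used here. Rows were matched to GENCODE 44 (56105 rows, 98.0% of human counts) and M21 (42462 rows, 99.8% of mouse counts). Each table was fitted apart with edgeR 4.0.16 (R 4.3.3; filterByExpr, TMM, quasi-likelihood test, two-sided, Benjamini-Hochberg over all genes tested), checked on simulated data. The study used DESeq2; DESeq2 1.42.0 was an alternative, beside other scalings, filters, fold limits, halved counts, a replicate block and leaving out each library. Replicates differed by more than sampling noise (chi-square of at least 20.0 per gene), so each library counted once. Per-kilobase levels used merged exon length. Distances between profiles were Euclidean, on centred log2 CPM with a prior count of 2.

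The members and gene lists were chosen with earlier results of these data known. All members were named, with IRF2BP2, ITGB1, ITGB2, ITGB7, CD44, CD69 and KLF2, up to 4 called genes of each list by adjusted p, and the 3 genes closest in profile to the member of lowest p in each table. Some genes of these lists and some sequences are not reported here. Marker lists were T, B, plasma, erythroid, myeloid, natural killer cell and platelet markers. Intervals are 95% and cover the fitted spread between libraries.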

Additional observations from a re-analysis of the deposited data

Results flagged for a closer look

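CCR7 and CCR9 were singled out because every shIRF2BP2 library lay above every shNC library in J.gamma1, while every knockout library lay below every control in mouse. Among all genes tested, 29.6% were higher without overlap in J.gamma1 and 17.8% were lower without overlap in mouse. The share of all genes that parted in both in opposite directions was not counted, so the flagged members cannot be set against it. For CCR7 the log2 fold change was 0.61 in J.gamma1 and -0.53 in mouse. For CCR9 it was 0.67 in J.gamma1, at 16 to 35 counts per library, and -0.97 in mouse. None of these 4 values passed edgeR's adjusted threshold, and the difference between J.gamma1 and mouse was not tested, since a knockdown in a leukemia line and a knockout in sorted spleen cells are separate designs and separate tables. No group had the 4 samples needed to look for a library far from the rest.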

How the results depend on the processing

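With 2 or 3 libraries a group, a missed threshold does not show that a member did not change. In J.gamma1, 84 of 90 values of the members under 10 alternatives kept their direction and side of the threshold, and in mouse 104 of 108 under 12. For the other named genes these were 172 of 210 values in J.gamma1 and 143 of 180 in mouse. J.gamma1 had 2 members called higher and 1 lower. The count of members called higher was 1 with a log2 fold limit of 1 and 1 when every gene with at least 1 count was tested, and ran from 1 to 3 without each library, with 1 to 2 lower. Genes called in J.gamma1 (864 higher, 793 lower) numbered 262 and 318 with the fold limit of 1, 319 and 396 with the count minimum of 1, and 418 to 1608 higher and 419 to 1143 lower without each library. In mouse (412 higher, 23 lower), DESeq2 called 945 genes higher and 213 lower, with 2 members lower, halved counts gave 37 lower, and T cell marker scaling gave 1143 higher and 11 lower. Without each mouse library 6 to 594 were called higher and 1 to 65 lower. SELPLG in J.gamma1 changed sign without shNC replicate 1 or shIRF2BP2 replicate 1, with a range of -0.025 to 0.10 over the omissions. T cell marker scaling reversed S1pr1 (0.12), Ccr4 (0.13), Itgb2 (0.28), Itgb7 (0.26) and Klf2 (0.0041), by moving the scale itself. Without 1 library, Klf2 ran from -1.01 to 0.032 and Cd69 from -0.25 to 0.85. The cause of the other changes was not tested.

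The labels give replicate numbers and do not say that same-numbered libraries were paired. Deviations of same-numbered libraries from their group means correlated at 0.23 in J.gamma1 and at 0.15 and -0.16 in mouse. Whether same-numbered libraries shared a batch was not tested. With the number as a replicate block, 2 members were called higher and 1 lower in J.gamma1 (1293 and 1174 genes, against 864 and 793 without the block). In mouse 0 members were called (443 genes higher and 53 lower). In J.gamma1 the block took CXCR4 (-0.44, edgeR adjusted p = 0.0139) and ITGA4 (0.44, edgeR adjusted p = 0.0348) under the adjusted limit, short of the fold limit. Under the block RAC2 (just short of the fold limit), Ackr1 (edgeR adjusted p = 0.0926) and Rgs16 (0.0577) were no longer called and CD69 was called (0.80, edgeR adjusted p = 0.0108).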

Other observations

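The marker lists of other cell types moved in J.gamma1 as well, a line that holds a single cell type. Of 14 T cell markers 5 were called higher and 1, CD3D, lower (225 to 130 CPM, log2 fold change -0.79, edgeR adjusted p = 0.00859). B cell markers summed to 66.9 and 83.4 CPM in shNC and 33.5 and 36.1 CPM in shIRF2BP2, where CD79A was the 1 call (53.1 to 12.6 CPM, log2 fold change -2.07). Plasma cell markers summed to 134 to 150 CPM against 83.0 to 85.5, with MZB1 lower and PRDM1 higher. Natural killer cell markers summed to 40.5 to 44.9 CPM against 44.6 to 46.8, with NKG7 and PRF1 higher and GZMA lower. Erythroid, myeloid and platelet markers summed to at most 2.85, 2.68 and 1.48 CPM in any J.gamma1 library, and ALAS2, HBB, MPO, LYZ, S100A8, CSF1R, PPBP, PF4 and GP9 had at most 3 counts. These named markers were chosen after their values were seen.

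ITGA4 and its partner chains can be set side by side within J.gamma1. ITGB1 and ITGB7 were called higher, while ITGA4 gave 0.43 and did not pass. For LFA-1 the order was the opposite, with ITGAL called higher and ITGB2 at 0.40 not called. Neither difference between chains was tested.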
